A study of Mus musculus with 6 samples.

Results

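A total of 755 H3K4me3 peaks of proliferating subventricular zone (SVZ) neural stem cell (NSC) cultures lay over an H3K27me3 peak in cultures differentiated for 30 h but over none in the proliferating cultures. They are called 30 h only peaks here. They were taken from the 18037 H3K4me3 peaks on chromosomes 1 to 19, of 18727 in the whole list, by an overlap of at least 1 bp. This is 4.19% of the peaks on these chromosomes (95% Wilson confidence interval (CI) 3.9 to 4.49%). The same overlaps sorted every other peak on these chromosomes, with 1871 under H3K27me3 at both times (10.4%), 137 under H3K27me3 in the proliferating list only (0.76%) and 15274 under neither list (84.7%). The 30 h only peaks were chosen by the measured H3K27me3 overlaps, so these counts and the values of the H3K27me3 peaks are a description and were not tested.

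H3K4me3 is a histone mark placed around the start sites of genes that are active or poised for activity. H3K27me3 is placed by EZH2, the methyltransferase of Polycomb repressive complex PRC2, and marks genes that are held silent. Regions that carry both marks are called bivalent and are typical of developmental regulators in stem cells, and the study asked which genes SVZ NSCs need EZH2 to repress as they differentiate. H3K4me3 was measured here only before differentiation, so the 30 h only peaks join a mark of proliferating cultures to a later mark. Both marks in a single cell, or at a single time, cannot be read from such an overlap.

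The cells were SVZ NSC monolayers of strain C57BL/6 at passages 5 to 7, a culture system grown from early postnatal SVZ tissue. For differentiation, the cultures were moved to medium with less serum and without the growth factors EGF and bFGF. The libraries compared were H3K27me3 at 30 h of differentiation, H3K27me3 in proliferating cultures and H3K4me3 in proliferating cultures that the labels call ventral, with 1 library each. The ventral label is absent from the H3K27me3 cultures, and the labels give no genotype. With 1 library per mark and time there is no replicate check, and intervals cover counting error only. Peaks are named by their coordinates in mm9, the build of the files, without gene names, and the cultures were not checked against marker genes. On chromosomes 1 to 19 the 30 h list held 14871 H3K27me3 peaks over 72.1 Mb, and the proliferating list held 9013 over 28 Mb. The lowest score that the peak caller gave was 50.03 in the 30 h list and 50.01 in the proliferating list, so both ended at nearly the same score. Sequencing depth is unknown for every library. Depth and other calling settings cannot be told apart from a change in the cells where the shorter list lacks a region.

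At 30 h, H3K27me3 covered most of the 30 h only peaks from 1 end. In 536 of the 755 (71%, 95% CI 67.7 to 74.1%) a 30 h peak covered 1 end of the H3K4me3 peak and left the other end free. The part covered varied widely among these 536, with a median of 33.6%, and was 50% or more in 172 of them. A single 30 h peak covered 180 of the 755 whole (23.8%), 33 had both ends covered with a gap inside, and 6 held the 30 h peak within their own borders. Among the peaks under H3K27me3 at both times, 1383 of 1871 were covered whole by a single 30 h peak (73.9%) and 385 at 1 end (20.6%). Cover at 1 end was as frequent in the reverse class, since proliferating H3K27me3 covered 97 of the 137 proliferating only peaks at 1 end (70.8%, 62.7 to 77.8%) and 27 whole (19.7%, 13.9 to 27.2%). A mark present in a single list was thus mostly found at 1 end of the H3K4me3 peak at either time. The median part under the 30 h mark was 51.4% of a 30 h only peak (95% CI of the median, from the binomial distribution, 46.9 to 56.5%), or 739 bp, against 100% of a peak marked at both times, or 1319 bp. Of the 755, 385 had at least 50% of their length covered (51%). Proliferating only peaks had a median of 64.4% under their own list (57 to 75.4%). The H3K27me3 peaks differed in width and score along with this, with medians of 3259 bp and 166.38 over the 30 h only peaks, against 7137 bp and 1098.72 at 30 h over peaks marked at both times, and their part in the difference in cover was not tested. The median of 51.4% was 20.4% with the stronger 50% of each list. This setting also cut the H3K4me3 list and left wider 30 h only peaks, with a median of 2242 bp against 1535 bp. The median cover was 29.3% with the strongest 2196 peaks at 30 h, which cover about as many bases as the proliferating peaks. The middle base lay under 30 h H3K27me3 in 373 of the 755 (49.4%), against 1726 of 1871 (92.3%) at both times and 97 of 137 (70.8%) in the reverse class.

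**Figure D1:**
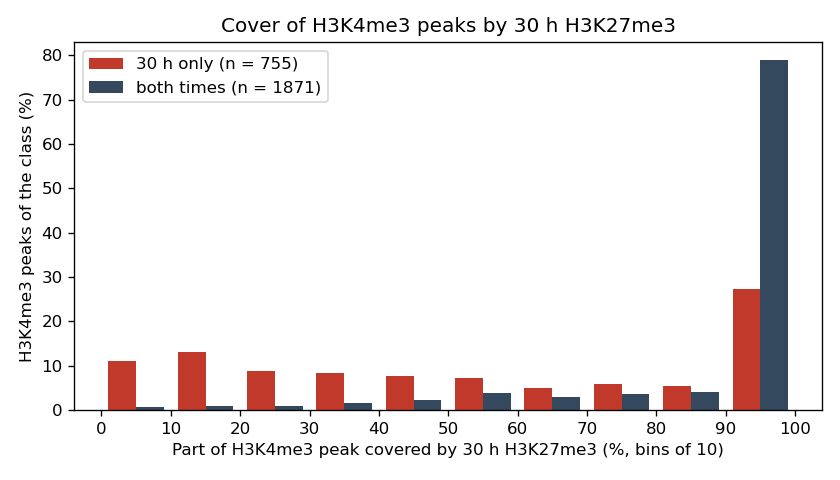
Part of each H3K4me3 peak that lay under 30 h H3K27me3 (x axis, percent, in bins of 10) for 30 h only peaks and for peaks marked at both times (y axis, percent of the peaks of the class, 1 library per mark and time). The 30 h only peaks spread over all bins with 27.4% in the highest, where 79% of the peaks marked at both times lie.

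When the peaks were aligned on their middles, 30 h H3K27me3 showed a dip at the middles of the 30 h only peaks. Over the 30 h only peaks, 30 h H3K27me3 was present at 49.4% of the middles, at 57.4% of positions 1 kb to either side, at 47.8% at 2 kb and at 24.4% at 5 kb. No dip was seen in peaks marked at both times, with 92.3% at the middle and 87.2% at 1 kb, nor in the proliferating only peaks under their own list, with 70.8% at the middle and 50.4% at 1 kb. Proliferating H3K27me3 was absent from the 30 h only peaks by their definition but lay at 5.89% of positions 2 kb away and at 6.95% at 5 kb. Around H3K4me3 peaks under neither list, these values were 0.331% and 1.02%.

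**Figure D2:**
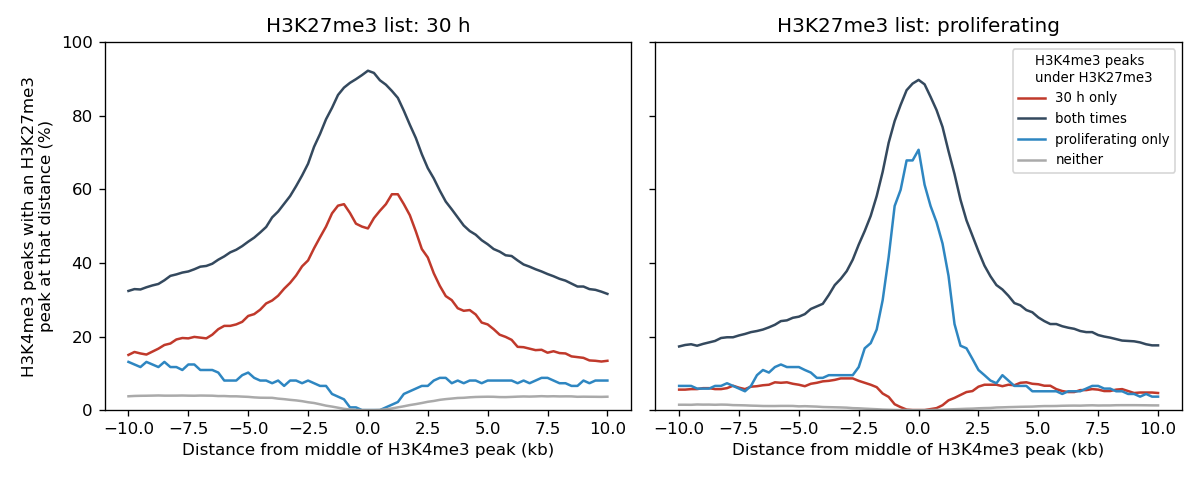
Share of H3K4me3 peaks (y axis, percent) with an H3K27me3 peak at each distance from their middle (x axis, kb), in the 30 h list (left) and the proliferating list (right), with 1 line per class of H3K4me3 peak and 1 library per list. The 30 h only line on the left has its low point between the flanks at the middle, at 49.4%, against 57.4% at 1 kb to either side.

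How much of a 30 h only peak was covered went with the strength of its H3K4me3. The deposited score of MACS, the peak caller, was used to rank the 18037 H3K4me3 peaks into 5 equal groups, with equal scores ordered by width. The third group scored 1505 to 3100, all peaks of the fourth scored 3100, and those of the fifth scored 3100 to 3233. Where scores were equal, width alone set these 3 groups apart, and their median widths were 1920, 2443 and 3375 bp. Differences between these 3 groups are therefore in part differences in width. In the weakest group, 174 30 h only peaks had a median of 93.2% covered (95% CI 81.4 to 100%) and 82 of them were covered whole (47.1%). In the second group, the median over 265 peaks was 72% (62.3 to 77.8%), and in the third, over 162 peaks, 36.4% (29.9 to 43.9%). The strongest groups had 18.7% (16 to 25.4%) over 97 peaks in the fourth and 19.2% (14.1 to 24.7%) over 57 peaks in the fifth. Only 1 peak of the fourth group and 2 of the fifth were covered whole.

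Stronger H3K4me3 peaks are wider, and the median width of the 30 h only peaks was 905 bp in the weakest group and 3231 bp in the strongest. The length shared with H3K27me3 varied less, with medians of 699.5, 959, 679.5, 447 and 659 bp from the weakest group to the strongest. The middle base was covered in 72.4%, 65.3%, 34.6%, 10.3% and 14% of the 30 h only peaks in the same order. In peaks marked at both times it was covered in 98.6%, 96.1%, 88.7%, 59.7% and 57.8%. Cover of the middle was therefore lower in strong than in weak H3K4me3 peaks in both classes, and lower in 30 h only peaks in each of the 5 groups.

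**Figure D3:**
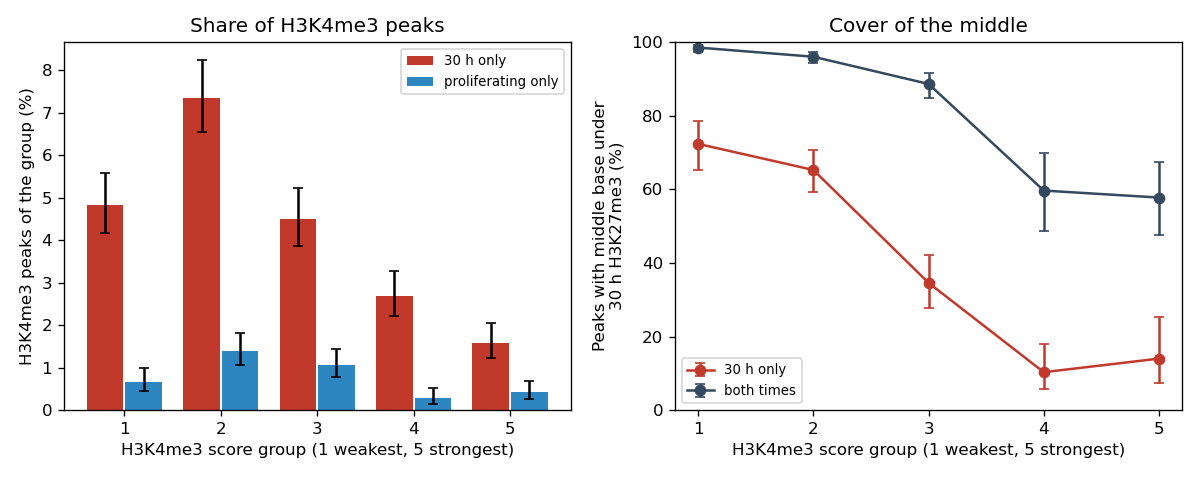
Left, share of the H3K4me3 peaks in each score group (x axis, weakest to strongest) that were 30 h only or proliferating only (y axis, percent). Groups 3, 4 and 5 meet at a score of 3100, where peaks were ordered by width. Right, share of 30 h only peaks and of peaks marked at both times whose middle base lay under 30 h H3K27me3 (y axis, percent). Error bars are 95% Wilson intervals over peaks of 1 library, and the 30 h only points on the right lie between 10.3% and 72.4%.

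The H3K4me3 of the 30 h only peaks was weaker than that of the whole list, with a median score of 1055.29 against 2731.58. Of the 755, 174 were in the weakest and 265 in the second weakest of the 5 score groups. Their median width was 1535 bp (95% CI 1472 to 1603 bp), against 1454 bp for peaks marked at both times, 1798 bp for proliferating only peaks and 2074.5 bp for peaks under neither list. Their median score had a 95% CI of 899.1 to 1238.64, and the other classes had medians of 607.69, 1238.56 and 3100 in the same order. A score of 3100 or more, which the strongest peaks share, was reached by 201 of the 755 (26.6%), against 10.3% of peaks marked at both times, 21.9% of proliferating only peaks and 52.8% of those under neither. By H3K4me3 score, the share of all peaks that were 30 h only was 4.82% in the weakest of the 5 groups, 7.35% in the second, 4.49% in the third, 2.69% in the fourth and 1.58% in the strongest, beside 4.19% over all. The fourth and strongest groups meet at the score of 3100, where peaks were ordered by width. In 5 equal groups by width, the share was highest, at 6.71%, for peaks of 1154 to 1722 bp and lowest, at 1.66%, for the widest group.

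Most 30 h only peaks were under 30 h H3K27me3 peaks that met no proliferating H3K27me3, but this turned round in a shorter 30 h list. For 594 of the 755 (78.7%, 95% CI 75.6 to 81.4%) this was so at every point of those 30 h peaks, and the median gap to the nearest one was 83958.5 bp (72875 to 98323 bp). For the other 161 (21.3%, 18.6 to 24.4%) a 30 h peak over them also lay over proliferating H3K27me3 next to the H3K4me3 peak, at a median gap of 1125 bp (858 to 1414 bp). With only the strongest 2196 peaks kept at 30 h, the share of this second kind was 81.6% of 103 peaks. Over the whole 30 h list, 10350 of 14871 peaks met no proliferating H3K27me3. In the strongest of 5 equal groups of that list by score, 18.8% met none. The part of these list-wide shares in the values of the 30 h only peaks was not tested. The 161 were under wide and strong 30 h peaks, with medians of 7681 bp and a score of 757.8, against 2885.5 bp and 133.46 for the 594. A 30 h peak over the 161 has to span the gap to proliferating H3K27me3, so greater width and a small gap follow in part from this split. The H3K4me3 peaks themselves had like medians in both sets, 1577 and 1526 bp in width and 1063.08 and 1030.585 in score. The middle base was covered in 34.2% of the 161 (27.3 to 41.8%) and in 53.5% of the 594 (49.5 to 57.5%). Cover at 1 end was found for 120 of the 161 (74.5%) and 416 of the 594 (70%), so it was frequent with and without proliferating H3K27me3 under the same 30 h peak.

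Over all 755, proliferating H3K27me3 was nearer than to H3K4me3 peaks under neither list, with median gaps of 48170 and 111875 bp. A proliferating H3K27me3 peak lay within 1 kb of 79 (10.5%), within 5 kb of 185 (24.5%), within 20 kb of 284 (37.6%) and within 100 kb of 485 (64.2%). For H3K4me3 peaks under neither list these shares were 0.563%, 3.79%, 13.5% and 46.5%. Peaks under neither list also meet no 30 h H3K27me3 by definition, and the part of this rule in the difference was not tested. Gaps of 500 kb or more were found for 44 of the 30 h only peaks (5.83%).

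**Figure D4:**
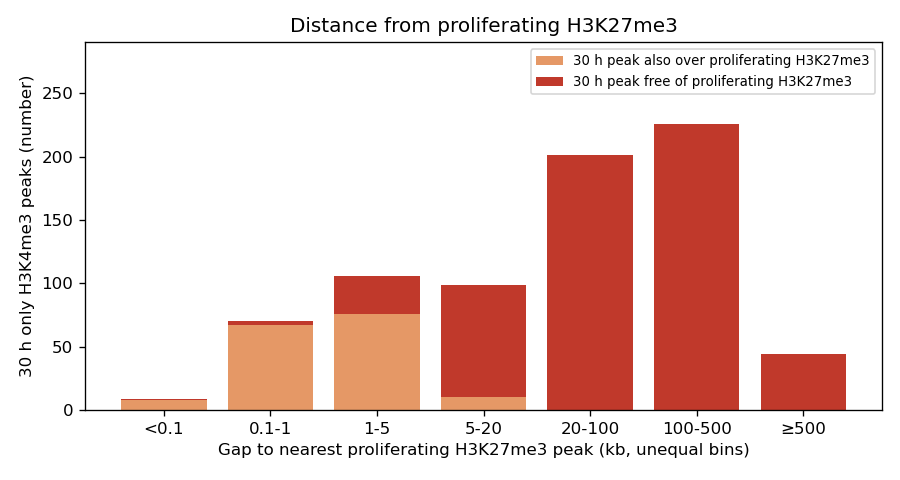
Number of 30 h only H3K4me3 peaks (y axis) by the gap to the nearest proliferating H3K27me3 peak (x axis, kb, in unequal bins), 1 library per list. Colours show whether a 30 h H3K27me3 peak over the H3K4me3 peak also lies over proliferating H3K27me3 (161 peaks, none at 20 kb or more) or not (594 peaks).

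The 30 h H3K27me3 peaks over the 30 h only peaks came from the whole range of the 30 h list. There were 780 of them, 771 over 1 and 9 over 2 of the 30 h only peaks. The 14871 peaks of the 30 h list were split by score in the same way, and 4.57% of the weakest group, then 4.98%, 5.92%, 5.78% and 4.98% of the strongest lay over a 30 h only peak. For H3K4me3 peaks marked at both times this share was 34.4% of the strongest group and 1.31% of the weakest. Since 93.7% of the weakest 30 h peaks but 18.8% of the strongest met no proliferating peak, the unmet ones were also taken alone. Of these 10350, 653 lay over H3K4me3 (6.31%), with 4.95% in the weakest group (95% CI 4.21 to 5.82%), 5.86%, 6.99% and 7.33% in the next, and 8.75% in the strongest (6.68 to 11.4%). Width goes with score here, with medians of 2026 bp in the weakest and 8007 bp in the strongest of these groups. The 653 and the 9697 not over H3K4me3 had medians of 2862 and 2808 bp in width and 131.75 and 110.9 in score.

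The 30 h only peaks with the most bases under 30 h H3K27me3 lay on chromosome 4 from 146551917 to 146557146 and on chromosome 6 from 8897882 to 8902386. The peak on chromosome 4 was weak in H3K4me3 (score 197.87), 5230 bp wide, and held a 30 h peak of 3866 bp within its borders. The peak on chromosome 6 had an H3K4me3 score of 3100, and 3399 of its 4505 bp were covered, with the nearest proliferating H3K27me3 18877 bp away. Next came a peak on chromosome 7 from 116316796 to 116319525, whose 2730 bp lay whole inside a 30 h peak of 10341 bp with a score of 760.11. Its H3K4me3 score of 3135.68 was among the 5 highest of the 30 h only peaks, and proliferating H3K27me3 lay 17625 bp away. A peak on chromosome 10 from 36226015 to 36228323 had an H3K4me3 score of 3150.37, also among the 5 highest, and was likewise covered whole over 2309 bp, 503041 bp from any proliferating H3K27me3. These were the 2 peaks covered whole among the 57 in the strongest H3K4me3 group.

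The other 6 of the 10 most covered peaks had between 2201 and 2674 bp under 30 h H3K27me3. They lay on chromosome 4 from 145730175 to 145732848, from 84319878 to 84322414 and from 55542930 to 55546857, on chromosome 2 from 181497728 to 181500034, and on chromosome 13 from 10358530 to 10360768 and from 20181731 to 20183931. Only the first of these had its 30 h peak reach proliferating H3K27me3, 528 bp from the H3K4me3 peak. Its H3K4me3 was weak, with a score of 92.58, while the score was 3100 for both others on chromosome 4 and for the second on chromosome 13.

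The remaining peaks of highest H3K4me3 score were covered at an end. Those on chromosome 14 from 123381294 to 123383494 (score 3217.62) and chromosome 2 from 92884941 to 92887085 (score 3169.1) had 14.1% and 17.2% of their length under the 30 h mark. The widest of the peaks at a score of 3100, on chromosome 16 from 30062775 to 30068771, had 927 of 5997 bp covered (15.5%).

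A 30 h peak with a score of 3100 or more covered 22 of the 30 h only peaks, 15 of them at 1 end and 5 whole. These 30 h peaks were between 11183 and 91680 bp wide, with a median of 20371 bp, and all 22 also met proliferating H3K27me3. Named here are the highest and, among the equal scores of 3100, the 4 widest. The highest, with a score of 3227.04 and 15830 bp wide, covered 403 bp at an end of the H3K4me3 peak on chromosome 15 from 103012401 to 103013904, 941 bp from proliferating H3K27me3. A 30 h peak of 91680 bp covered 66 bp of the H3K4me3 peak on chromosome 8 from 126152150 to 126153489, and one of 38237 bp covered 41 bp of that on chromosome 19 from 44766803 to 44767814. Covered whole were the H3K4me3 peaks on chromosome 12 from 33741860 to 33742687, inside a 30 h peak of 48712 bp, and on chromosome 3 from 96131392 to 96132840, inside one of 40861 bp, with proliferating H3K27me3 218 and 363 bp away.

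The 5 peaks farthest from proliferating H3K27me3 were more than 1 Mb away. The peak on chromosome 1 from 178204544 to 178206325 was 1616201 bp from the nearest one and had 952 bp under a 30 h peak with a score of 107.26. Next in distance came chromosome 11 from 37048585 to 37051043 (1127549 bp away), chromosome 9 from 52485731 to 52488044 (1106380 bp), chromosome 13 from 42804603 to 42805862 (1074193 bp) and chromosome 2 from 63021613 to 63022993 (1045115 bp). Their 30 h peaks were between 1728 and 4954 bp wide, with scores between 66.27 and 282.74, and each covered the H3K4me3 peak at 1 end.

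Of the 9 30 h peaks over 2 of the 30 h only peaks, the widest lay on chromosome 15 from 101676890 to 101693847 and also met 2 proliferating H3K27me3 peaks. It covered 327 of 1242 bp of the first H3K4me3 peak and all 1036 bp of the second. The next, on chromosome 10 from 29247847 to 29255285, was 613649 bp from any proliferating H3K27me3. It covered a weak H3K4me3 peak (score 268.41) whole and the adjacent strong one (score 2668.43) over 56.7%. The third, on chromosome 5 from 110074959 to 110081805, met 2 proliferating peaks and covered 15.7% and 13.5% of its H3K4me3 peaks.

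Along the genome the 30 h only peaks were found on all 19 chromosomes. Their share of the H3K4me3 peaks was between 3.16% on chromosome 12 (95% CI 2.12 to 4.7%) and 5.62% on chromosome 19 (4.05 to 7.75%), and the interval of each chromosome overlapped those of the other 18. The nearest H3K4me3 peak was another 30 h only peak for 73 of the 755 (9.67%, 7.76 to 12%), beside 4.19% of all peaks, and one marked at both times for 147 (19.5%, 16.8 to 22.4%), beside 10.4% of all peaks. A nearest peak of the own class was also more frequent than its share of all peaks in the other classes. It was found for 39.4% of peaks marked at both times (beside 10.4%), 8.03% of proliferating only peaks (0.76%) and 90.4% of those under neither list (84.7%). Neighbouring H3K4me3 peaks can lie under the same H3K27me3 domain, and 47 of the 780 30 h peaks also lay over an H3K4me3 peak of another class. The 9 over 2 of the 30 h only peaks enter this count only where a peak of another class lay there too. With a largest gap of 100 kb, 115 of the 30 h only peaks formed 54 runs, 47 of 2 peaks and 7 of 3. Runs were not counted for all H3K4me3 peaks, so no closer spacing can be read from these numbers. Peaks of other classes lay inside some runs, as in a run of 3 on chromosome 3 with 8 H3K4me3 peaks in its span. Of the runs of 3, 3 lay on chromosome 3, 2 on chromosome 11 and 1 each on chromosomes 2 and 18.

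A small part of the 30 h only peaks lay within 100 bp of the limits of their definition, and a larger part left the class under wider limits. The smallest overlaps with 30 h H3K27me3 were 1 bp on chromosome 3 from 123087408 to 123089804, 13 bp on chromosome 3 from 9831205 to 9834332 and 17 bp on chromosome 12 from 77937944 to 77939870, and 40 of the 755 shared less than 100 bp (5.3%). Just outside, 62 peaks under neither list had a 30 h peak within 100 bp, and the nearest had gaps of 4 bp on chromosome 12 from 81858600 to 81859276, 4 bp on chromosome 15 from 76406179 to 76408095 and 9 bp on chromosome 4 from 119164246 to 119165824. A gap under 100 bp to proliferating H3K27me3 was found for 9 of the 755 (1.19%), and the smallest were 12 bp on chromosome 5 from 74037747 to 74039752, 21 bp on chromosome 17 from 32965724 to 32967890 and 31 bp on chromosome 19 from 46226047 to 46228418. On the far side, peaks marked at both times shared as little as 3 bp with the proliferating list on chromosome 5 from 137040671 to 137045530, 11 bp on chromosome 1 from 19195523 to 19196788 and 26 bp on chromosome 12 from 120092997 to 120094112. With at least 500 bp shared there were 511 30 h only peaks (2.83% of the H3K4me3 peaks), and with at least 50% of the H3K4me3 peak under the 30 h list and less under the proliferating list there were 472 (2.62%). Leaving out peaks with proliferating H3K27me3 within 5 kb gave 570 (3.16%), and merging H3K27me3 peaks less than 3 kb apart gave 771 (4.27%).

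The number of 30 h only peaks also followed the length of the 30 h list. With the proliferating list whole, cutting the 30 h list can only lower this number and raise that of proliferating only peaks. With only the strongest 2000 peaks of that list kept (27.7 Mb), 93 H3K4me3 peaks were 30 h only and 920 were proliferating only. With 6000 kept there were 313 and 408, with 8000 kept 426 and 297, and with all 15187, other chromosomes included, 755 and 137. The 30 h only count was still growing at the end of the list, with 708 at 14000 peaks kept, where the count marked at both times was 1860. With as many 30 h peaks as the proliferating list holds there were 509 30 h only peaks (2.82% of the H3K4me3 peaks) and 238 proliferating only. With its covered length there were 103 (0.571%) and 869. With the stronger 50% of all 3 lists, 157 of 9172 H3K4me3 peaks were 30 h only (1.71%) and 31 were proliferating only. The 30 h only count was thus the larger at equal numbers and the smaller at equal covered length. At equal numbers the 30 h list still covered more bases than the proliferating list. It covered 56 Mb with 8000 peaks kept and 61.8 Mb with 10000, against 28 Mb in the proliferating list on chromosomes 1 to 19. Whether the 30 h only or the proliferating only count was larger depended on how the lists were cut. Gain of the mark during differentiation cannot be told apart from the difference between lists.

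**Figure D5:**
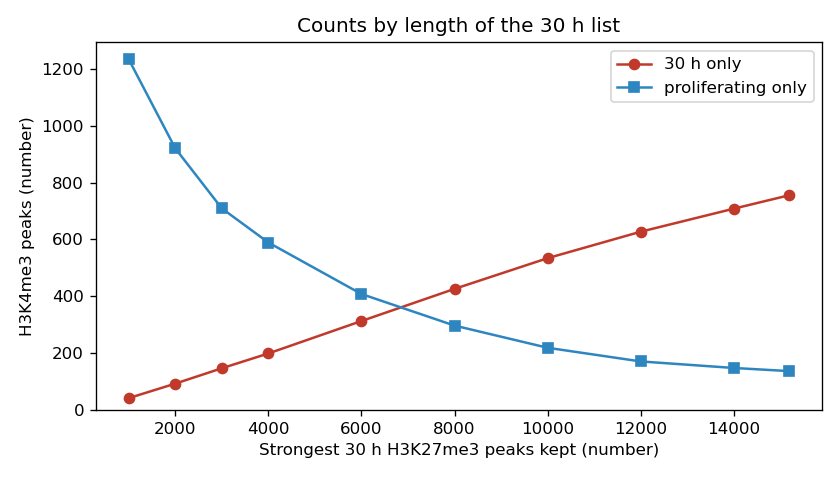
Number of H3K4me3 peaks that were 30 h only or proliferating only (y axis) as the 30 h H3K27me3 list was reduced to its strongest peaks (x axis, number kept), with the proliferating list whole and 1 library each. The lines cross between 6000 and 8000 peaks and end at 755 and 137.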

How the data were processed

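ChIP-seq peaks for H3K27me3 (30 h and proliferating) and H3K4me3 (proliferating) were analysed, 1 library each. The submitters' processing notes name Bowtie2 and mm9. The authors called peaks with MACS, without model and without lambda for H3K27me3, and the deposited score of each peak is their MACS value. It was used only for ranking within a list. Not given in the sources used here are the MACS version, its threshold, the settings for H3K4me3 and how inputs were used, and the 3 input libraries were not analysed here. The lists hold no read counts.

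Starts were read as 0-based and are printed 1-based. Overlaps used pandas 2.3.3, scipy 1.17.1 and numpy 2.4.6 under Python 3.11.15 and were tested on simulated data. With bedtools 2.31.1 the count was also 755. Figures used matplotlib 3.10.9. Shares carry Wilson intervals and medians binomial intervals, both at 95%. Coordinates of another build were not converted, so the planned gene, marker and sequence results were not computed. Named regions were the 10 with the most bases under the 30 h mark, the 5 highest by 30 h score, by H3K4me3 score and by gap to proliferating H3K27me3, the 3 widest 30 h peaks over several, and 3 on each side of both overlap limits, with equal scores ordered by width. Those just outside the 30 h limit were added after seeing the data. The peaks and rules were chosen with earlier results of these data known. Alternatives changed the overlap, list strength and length, gap and merging.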

Additional observations from a re-analysis of the deposited data

How the results depend on the processing

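Of 35 values under 7 alternative settings, 13 stayed within their limits (1.5 times for counts, the 95% interval otherwise). With at least 50% of the H3K4me3 peak covered, 472 peaks were 30 h only, and 31.1% of them had a 30 h peak that also met proliferating H3K27me3, which this setting allows over the H3K4me3 peak itself. Their median width was 1328 bp and, by construction, their median cover 93.6%. With at least 500 bp shared, the share meeting proliferating H3K27me3 was 16.2%, the width 1466 bp and the cover 77.8%. With the stronger 50% of each list, 157 peaks were 30 h only and 31 proliferating only, with 26.1%, 2242 bp and 20.4%. With equal numbers of H3K27me3 peaks (9470), 238 were proliferating only and the share was 30.8%. At equal covered length, which leaves 2196 peaks at 30 h, the balance turned round, with 103 peaks 30 h only and 869 proliferating only, and the values were 81.6%, 1764 bp and 29.3%. Without peaks that had the other H3K27me3 list within 5 kb, the share was 1.75%, as that setting removes near ones. After merging H3K27me3 peaks less than 3 kb apart, the share was 27.9% and the cover 64.1%. Beyond smaller lists and such construction, the cause was not tested for any of these values. Unknown depth limits every comparison between the lists. No paired analysis was possible because each mark and time had 1 library.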
